A study of Mus musculus with 12 samples.

Results

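The interferon effector genes described here are 37 genes whose products carry out the interferon response. They were chosen by name from the platform's gene symbols, with earlier results of these data known. Of them, 32 had a probe set that named no other gene, each exactly 1, among 18820 genes measured in this way. Ifi44 was not listed, and Ifi47, Igtp, Irgm2 and Dtx3l stood only on probe sets shared with another gene, so no values are given for these 5. Of the 32, 29 were bright enough to be tested. The probe sets of Isg15, Gbp2 and Nmi stayed at or near the background of the arrays and are described separately.

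RNA came from EML1 cells. These haematopoietic progenitors were made by infecting marrow cells of BDF1 males with LRARalpha403SN, a retroviral vector that all groups carry. The cells had been infected with the lentiviral vector pWPI, either empty or carrying TEL-AML1, the ETV6-RUNX1 fusion of childhood B-cell precursor leukaemia. Each vector was profiled untreated, at day 5 and at day 7 of IL7 and FLT3L, with 2 arrays in each of the 6 groups. The culture protocol describes B-cell differentiation as 50000 EML1 cells on confluent OP9 stroma, in α-MEM with fetal bovine serum, IL7 at 10 ng/ml, FLT3L at 80 ng/ml and β-mercaptoethanol at 50 μM, against maintenance in IMDM with horse serum and BHK/MKL-conditioned medium. The sample titles name only the cytokines. A comparison of treated with untreated cells therefore sets cytokines, stroma, medium and serum together, and these cannot be told apart.

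Type I interferons bind the receptor pair IFNAR1 and IFNAR2, and the kinases JAK1 and TYK2 then act on a complex that includes STAT2 and IRF9 and binds the interferon-stimulated response element (ISRE). Interferon gamma acts through its own receptor and the gamma-activated site (GAS). The induced genes include antiviral proteins, guanylate-binding and immunity-related GTPases, TRIM ubiquitin ligases, components of PML nuclear bodies and the enzymes that attach or remove the ubiquitin-like protein ISG15.

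Promoter windows of RefSeq (GRCm38.p6, 250 bases before to 50 after each gene's start) were on hand for 30 of the 37 genes. An ISRE core was taken as GAAA, any 2 bases and GAAA, or TTTC, any 2 bases and TTTC on the opposite strand. It lay in the windows of 13 of the 30. Over all genes in that table the share was 3.99%. The palindromic GAS core TTCNNNGAA lay in 6 of the 30, or 20%, against 9.55% of all genes. Both were found in 4 of the 30 and neither in 15. A match is a string of letters and not a shown binding site. The stretches below are shown because they carry the ISRE core of 6 genes described below. Trim30a, Irgm1 and Bst2 rose in every treated group, Rsad2 parted the vectors at day 7, and Gbp3 and Cxcl10 passed the test against untreated cells with the empty vector and not with TEL-AML1, while the vectors' difference in response did not itself pass. Each is read 5′ to 3′ along the gene's strand, with the core or overlapping cores in capitals.
Trim30a, chr7:104465195-104465254, minus strand, core 36 bases before the start: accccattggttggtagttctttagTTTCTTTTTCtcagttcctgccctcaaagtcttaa
Irgm1, chr11:48871421-48871475, minus strand, first core 30 bases before the start: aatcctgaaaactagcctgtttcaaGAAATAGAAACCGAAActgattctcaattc
Bst2, chr8:71537568-71537627, minus strand, first core 130 bases before the start: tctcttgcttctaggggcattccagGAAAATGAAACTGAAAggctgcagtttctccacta
Rsad2, chr12:26456538-26456597, minus strand, core 120 bases before the start: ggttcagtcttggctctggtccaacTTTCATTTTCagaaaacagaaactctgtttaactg
Gbp3, chr3:142559974-142560033, plus strand, first core 45 bases before the start: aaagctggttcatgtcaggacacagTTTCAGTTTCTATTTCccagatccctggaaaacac
Cxcl10, chr5:92349068-92349127, minus strand, core 213 bases before the start: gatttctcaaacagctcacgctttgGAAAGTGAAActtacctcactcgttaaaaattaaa

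Array medians ranged from 68.1 to 72.9 in intensity, and the correlation across genes between both arrays of a group from 0.981 to 0.997. With 2 arrays a group, their number limits the precision of every value, and p-values reflect a spread that may be technical, since the labels name no separate cultures. Haematopoietic progenitor transcripts (7 of 8 listed genes measured, among them Ptprc and Kit) summed to 8514 to 10050 on all 12 arrays. Transcripts of stroma (19 of 20 listed genes measured) summed to 1942 to 2401 on the 4 untreated arrays and to 2283 to 9973 on the 8 treated ones. Pdgfrb, which untreated cells already carried at 891 to 1261, made up much of the lower sums, and without it the ranges were 1050 to 1140 and 1217 to 9041. The empty vector arrays of day 5 stood at 9973 and 7979, those of day 7 at 2548 and 6331. The TEL-AML1 arrays stood at 8297 and 3816 at day 5 and at 2283 and 4487 at day 7. Of the 19 genes, 9 were at or under the test's brightness limit on all untreated arrays, and Lum and Dcn on all 12. Fewer cells of a type and less RNA per cell cannot be told apart in such bulk samples.

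Most interferon effector genes rose after treatment in both vectors, at both times. In empty vector cells 25 of the 29 rose at day 5 and 25 at day 7, where 8.45% and 6.28% of all 12337 genes tested rose, and none fell (7.16% and 9.19% of all genes). In TEL-AML1 cells 21 rose at day 5 and 23 at day 7, against 1.17% and 4.77% of all genes, and none fell (0.438% and 3.08%). The call is limma's adjusted p under 0.05, by Benjamini-Hochberg over all tested genes. As the list was chosen with earlier results known, these counts describe it and are not independent support. The median log2 fold change of the 29 was 1.08 at day 5 and 0.86 at day 7 with the empty vector, against 1.09 and 1.28 with TEL-AML1, while that of all genes lay within 0.01 of 0. Of the 29, 20 passed in all 4 comparisons, 12 were more than 2-fold higher in all 4, and Ifi30 passed in none. At most 1.17% of all genes can have risen in all 4, the share at day 5 with TEL-AML1. Taken singly, the comparisons had 16, 13, 15 and 17 of the 29 more than 2-fold higher. Of all 12337 genes 235, 105, 112 and 107 were, with the empty vector (day 5, day 7) first and TEL-AML1 second. Cxcl10, Epsti1, Gbp3, Gbp7, Mx1 and Mx2 had untreated means at or under the brightness limit of 60.1 and entered the test through their treated levels. Both comparisons of a vector share its untreated arrays. Stroma transcripts had positive median changes in these comparisons too, smaller at day 7 than at day 5 in both vectors. Of 15 tested stroma genes, 14 rose at day 5 and 2 at day 7 with the empty vector and none with TEL-AML1, with median log2 changes of 1.90, 0.85, 1.16 and 0.34, and their part in the rise of the effector genes was not tested. The treated arrays lay wholly above the untreated ones for all 29 genes with the empty vector at day 5 (26.4% of all genes) and day 7 (31.3%), and for 28 (30.2%) and 27 (29.3%) with TEL-AML1. They lay wholly below for none, where 31.1%, 30.9%, 21.5% and 27.4% of all genes did in that order. Changes are differences of log2(intensity + 16) ± SE, a scale that understates the change of dim genes.

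**Figure D1:**
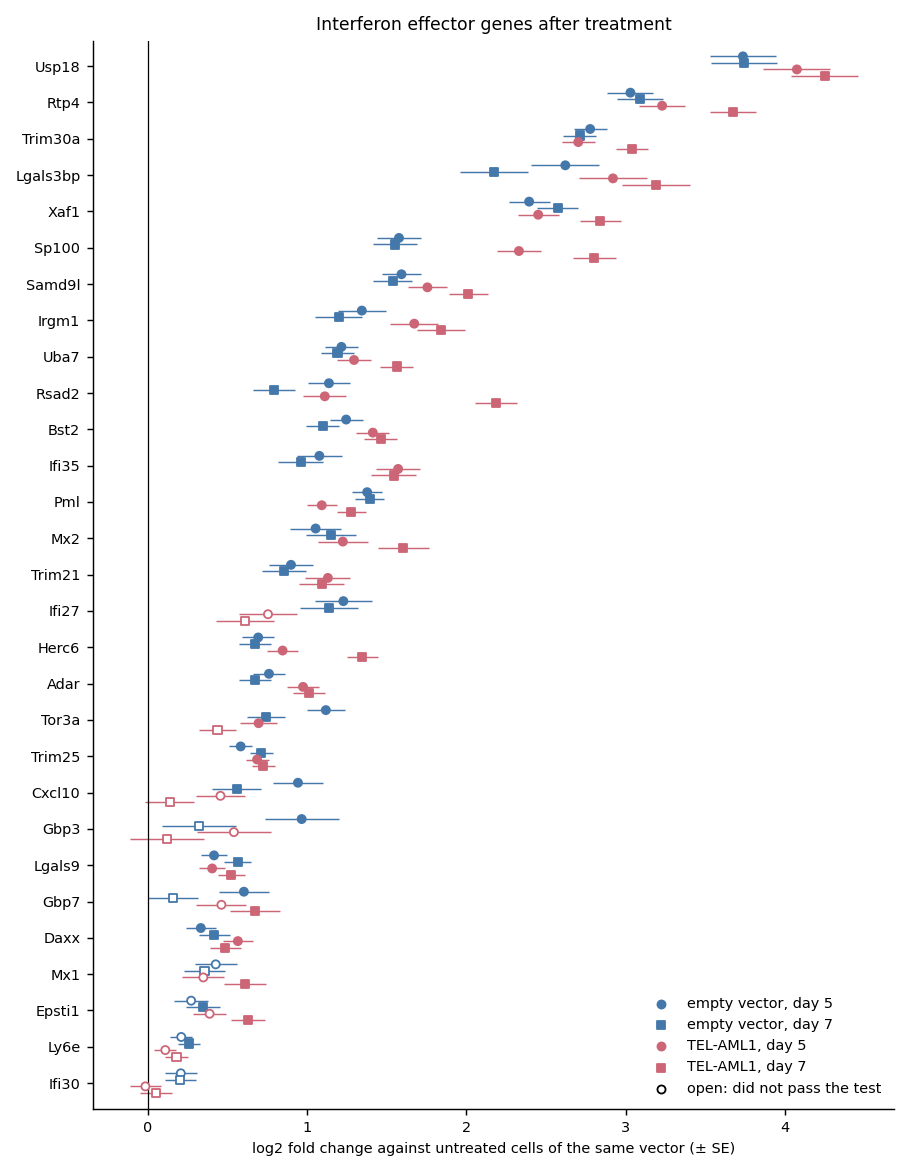
Log2 fold change (± SE) of the 29 tested genes against untreated cells of the same vector, from the fit of 12 arrays. Blue is the empty vector, red TEL-AML1, circles day 5, squares day 7, and open symbols did not pass the test. Usp18 leads at 3.74 to 4.25, and Ifi30 stays between -0.02 and 0.21.

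The ISG15 pathway held the gene with the largest change. Usp18 encodes the protease that removes ISG15 from proteins and dampens receptor signalling. Its intensity was 92.4 and 89.2 on the untreated empty vector arrays, 1722 and 1148 at day 5 and 1658 and 1204 at day 7. With TEL-AML1 it was 75.9 and 80.7 untreated, 1792 and 1380 at day 5 and 2014 and 1565 at day 7. Every treated array was far above every untreated one, while the treated groups overlapped one another. The rise was 13.3-fold and 13.4-fold with the empty vector (3.74 ± 0.21 at both times, adjusted p = 6.16e-06 and 6.72e-06). TEL-AML1 cells gave 4.07 and 4.25 (3.25e-06 and 1.68e-06). By size of fold change Usp18 ranked 5 among all tested genes at day 5 with the empty vector and 1 in the other 3 comparisons.

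Uba7, the enzyme that activates ISG15, rose by 1.22 and 1.19 with the empty vector, against 1.29 and 1.56 with TEL-AML1. Herc6, the ligase that attaches ISG15 in mice, rose by 0.69 and 0.67 and by 0.85 and 1.35. All 3 tested genes of this pathway rose in each comparison. The only probe set that named Isg15 alone was dim, at 37.7 to 74.6 with a median of 59.7, and did not enter the test. Whether it reads the Isg15 transcript was not tested, so the level of Isg15 itself is not known here. With no filter its change was 0.41 ± 0.11 at day 5 (adjusted p = 0.0449) and 0.35 at day 7 (0.0807) with the empty vector. With TEL-AML1 it was 0.38 (0.209) and 0.60 (0.018). The probe set stayed near background on all arrays, so these values do not settle how much the Isg15 transcript changed.

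Among the antiviral proteins, 6 of 7 tested genes rose in 3 of the comparisons and all 7 at day 7 with TEL-AML1. Rtp4, an interferon-induced receptor transporter protein, was at 76.6 and 68.9 in untreated empty vector cells, 717 and 699 at day 5 and 882 and 619 at day 7. In TEL-AML1 cells it was at 68.2 and 54.7, then 726 and 689, then 934 and 1002. The treated arrays stood apart from the untreated ones, and both day 7 arrays of TEL-AML1 were the highest of the 12. The rise was 3.03 ± 0.14 and 3.09 with the empty vector, against 3.23 and 3.67 with TEL-AML1 (adjusted p = 3.04e-06, 1.99e-06, 1.29e-06 and 3.53e-07).

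Samd9l, a cytosolic restriction factor, went from 173 and 185 to 549 and 596 and then 638 and 475 with the empty vector. With TEL-AML1 it went from 152 and 154 to 547 and 560 and then 625 and 706. The untreated arrays were lowest in each vector, with rises of 1.59 and 1.54 and of 1.76 and 2.01. Bst2 (tetherin, which holds budding virions at the membrane) rose by 1.25, 1.10, 1.41 and 1.46 in the order empty vector day 5 and day 7, TEL-AML1 day 5 and day 7. In the same order Mx2, a dynamin-like GTPase, rose by 1.05, 1.15, 1.22 and 1.60, and Adar, the adenosine deaminase of double-stranded RNA, by 0.76, 0.68, 0.97 and 1.01. Mx1 was dim, at 56.1 to 115, and passed the test at day 7 of TEL-AML1 alone (0.61 ± 0.13, adjusted p = 0.022, lost without TEL-AML1 day 7 replicate 1 or either TEL-AML1 untreated array, up to 0.144).

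Rsad2 (viperin, a radical SAM enzyme that blocks viral replication) was the antiviral gene that most parted the vectors. It read 59.2 and 58.7 untreated, 139 and 159 at day 5 and 123 and 105 at day 7 with the empty vector. With TEL-AML1 it read 69.7 and 66.2, then 181 and 151, then 421 and 318. Both TEL-AML1 day 7 arrays were well above every other array. Its rise was 1.14 ± 0.13 and 0.79 with the empty vector, against 1.11 and 2.19 with TEL-AML1 (adjusted p = 0.000997, 0.00568, 0.00149 and 7.14e-06). The empty vector rise at day 7 missed the threshold without untreated replicate 2 (0.0539).

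**Figure D2:**
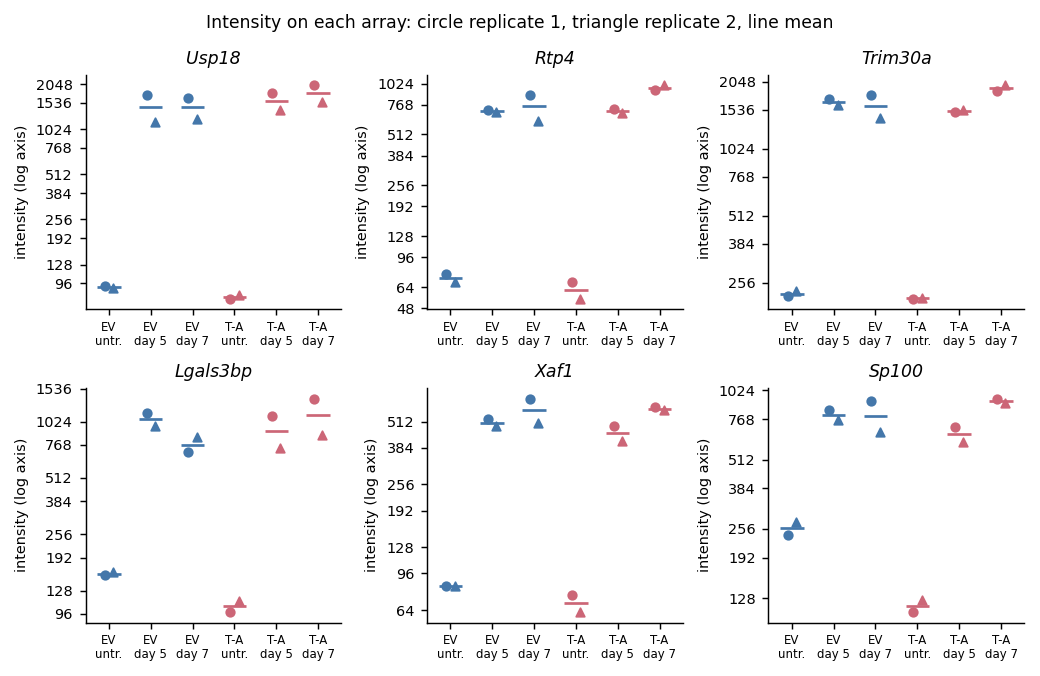
Intensity on each array (log axis) for Usp18, Rtp4, Trim30a, Lgals3bp, Xaf1 and Sp100, in empty vector (EV, blue) and TEL-AML1 (T-A, red) cells, with a line at the mean of 2 arrays. In all 6 genes the untreated arrays are the lowest of their vector, and untreated Sp100 is lower with TEL-AML1 (112 and 126) than with the empty vector (242 and 274).

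The TRIM ligases all rose in all 4 comparisons. Trim30a, an interferon-induced member in mice, was at 224 and 234 untreated, 1717 and 1612 at day 5 and 1790 and 1412 at day 7 with the empty vector. With TEL-AML1 it was at 218 and 219, then 1496 and 1524, then 1853 and 1975. The untreated levels of both vectors lay close together and far below every treated array. The rises were 2.78 ± 0.10, 2.71, 2.70 and 3.04, in the order empty vector day 5 and day 7, TEL-AML1 day 5 and day 7. In that order Trim21, the cytosolic antibody receptor, rose by 0.90, 0.86, 1.13 and 1.09, and Trim25, a ligase of the RNA sensor RIG-I, by 0.58, 0.71, 0.69 and 0.73. Both Trim21 calls of the empty vector were lost without untreated replicate 2 (adjusted p = 0.0532 at day 5 and 0.0518 at day 7).

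The genes of PML nuclear bodies also rose in every comparison. Sp100 was at 242 and 274 untreated, 839 and 761 at day 5 and 915 and 675 at day 7 with the empty vector. With TEL-AML1 it was at 112 and 126, then 713 and 612, then 943 and 904. The vectors were apart before treatment and overlapped at day 7. The rise was 1.58 ± 0.14 and 1.55 with the empty vector, against 2.33 and 2.80 with TEL-AML1. Pml, the scaffold of these bodies, ran the other way at the start, with 291 and 267 in untreated empty vector cells and 371 and 351 with TEL-AML1. It rose by 1.38 ± 0.093 and 1.39 with the empty vector, against 1.09 and 1.28 with TEL-AML1. Daxx, a histone chaperone of the same bodies, rose by 0.33, 0.42, 0.57 and 0.49, and each of these 4 calls was lost without 1 or more single arrays (adjusted p up to 0.205).

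The immunity GTPases, which act on vacuoles of intracellular pathogens, differed among themselves. Irgm1 was at 417 and 575 untreated, 1301 and 1238 at day 5 and 1108 and 1183 at day 7 with the empty vector. With TEL-AML1 it was at 360 and 475, then 1381 and 1329, then 1468 and 1577. The untreated arrays differed from one another more than the treated ones did, but stayed below all of them. The rises were 1.34 ± 0.15, 1.20, 1.67 and 1.84. The guanylate-binding proteins gave smaller and less even values. Gbp3 was at 50.8 and 51.3 untreated, 141 and 93.6 at day 5 and 59.3 and 77.0 at day 7 with the empty vector. In TEL-AML1 cells it stood at 51.1 and 47.4, then 109 and 56.1, then 50.2 and 59.7. It passed at day 5 of the empty vector alone (0.97 ± 0.23, adjusted p = 0.0222), and not without day 5 replicate 1 or either untreated array (up to 0.129).

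Gbp7 passed at day 5 with the empty vector (0.60 ± 0.16) and at day 7 with TEL-AML1 (0.67 ± 0.16, adjusted p = 0.0289). Both calls were lost without replicate 1 of the treated group or either untreated array of the vector, and the second also without either untreated empty vector array (up to 0.154 and 0.190). Gbp2 was dim, at 42.4 to 89.9, and with no filter it passed at day 5 of the empty vector alone (0.64 ± 0.14, adjusted p = 0.0246).

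Ifi35, a partner of NMI in cytosolic signalling, rose by 1.08, 0.96, 1.57 and 1.54, again with the empty vector first. Nmi was at 46.9 to 65.8 and passed in no comparison with no filter, the nearest being day 5 of the empty vector (0.26, adjusted p = 0.0514).

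Secreted and surface proteins gave both large and flat responses. Lgals3bp, the secreted galectin-3-binding protein, was at 154 and 161 untreated, 1142 and 971 at day 5 and 701 and 844 at day 7 with the empty vector. The TEL-AML1 arrays were at 98.5 and 112, then 1092 and 742, then 1360 and 871. The treated arrays all lay above the untreated ones, with wide gaps inside the TEL-AML1 groups. The rises were 2.62 ± 0.21, 2.18, 2.92 and 3.19. Cxcl10, a chemokine for activated T cells, was at 51.3 and 52.4 untreated, 111 and 118 at day 5 and 66.7 and 104 at day 7 with the empty vector. For TEL-AML1 the values were 46.6 and 47.2, then 80.1 and 61.5, then 49.9 and 56.5. Its day 7 arrays with TEL-AML1 were close to the untreated level. Cxcl10 passed with the empty vector at day 5 (0.94 ± 0.16, adjusted p = 0.00596) and day 7 (0.56, 0.0381), and not with TEL-AML1 (0.46 and 0.14, adjusted p = 0.22 and 0.71). Without empty vector untreated replicate 2 the day 5 call was lost (0.0555), and the day 7 call was lost without any of 7 single arrays (up to 0.161).

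Lgals9 (galectin-9) was bright throughout, at 1604 to 2659, and rose by 0.42, 0.56, 0.40 and 0.53. The calls of Lgals9 at day 5 in either vector and at day 7 of TEL-AML1 were lost without 1 or more single arrays (adjusted p up to 0.33). Ly6e, a membrane-anchored surface protein, read 2849 to 3603 and passed at day 7 of the empty vector alone (0.26 ± 0.070, adjusted p = 0.0325, up to 0.178 without a single array). Ifi30, the lysosomal thiol reductase of antigen processing, stayed at 112 to 158. Its log2 changes were 0.21, 0.21, -0.02 and 0.05, with adjusted p from 0.191 to 0.974.

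Of the remaining genes, Xaf1, a partner of the apoptosis inhibitor XIAP, changed most. It was at 83.2 and 83.6 untreated, 526 and 488 at day 5 and 660 and 502 at day 7 with the empty vector. In TEL-AML1 cells it stood at 75.4 and 62.8, then 486 and 413, then 598 and 584. All treated arrays stood above all untreated ones, with rises of 2.39 ± 0.13, 2.57, 2.45 and 2.84. Ifi27, a mitochondrial membrane protein, rose with the empty vector (1.23 ± 0.18 and 1.14) and did not pass with TEL-AML1 (0.75 and 0.61, adjusted p = 0.0841 and 0.0694), where untreated arrays read 129 and 77.5. Tor3a, a torsin ATPase of the endoplasmic reticulum, rose by 1.12 ± 0.12 and 0.74 with the empty vector and by 0.70 at day 5 of TEL-AML1, and stood at 0.44 (adjusted p = 0.0513) at day 7. The Tor3a calls at day 7 of the empty vector (0.051 without untreated replicate 2) and at day 5 of TEL-AML1 (up to 0.160 without a single TEL-AML1 array) were lost. Epsti1 was dim, at 48.1 to 96.3, and passed at day 7 in both vectors (0.35 and 0.63), each lost without 1 or more single arrays (up to 0.259 and 0.0742).

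Between day 5 and day 7 no interferon effector gene passed the test in either vector, and 0% of all tested genes did. By unadjusted p under 0.05, limma gave 0 higher and 5 lower of the 29 with the empty vector, and 9 higher and 0 lower with TEL-AML1. Of all genes 1.73% were higher and 4.72% lower by that rule in empty vector cells, against 3.79% and 4.21% in TEL-AML1 cells. The smallest adjusted p of the genes was 0.752 and 0.107. In TEL-AML1 cells 22 of the 29 had a higher mean at day 7 (45.8% of all genes), and in empty vector cells 19 had a lower one (48% of all genes), or 21 after centring each array on its median. The day 7 arrays of TEL-AML1 lay wholly above those of day 5 for 13 genes (16.7% of all genes) and wholly below for 2 (22.7%). With the empty vector they lay above for 2 (12.1%) and below for 7 (13%).

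Rsad2 had the largest difference between the times, 1.07 ± 0.13 (95% interval 0.78 to 1.37, adjusted p = 0.107) with TEL-AML1 and -0.35 (-0.64 to -0.05, 0.752) with the empty vector. The next largest increases with TEL-AML1 were Herc6 (0.50), Sp100 (0.47), Rtp4 (0.44), Xaf1 (0.39) and Mx2 (0.38), all at an adjusted p of 0.6 or more. For Usp18 the interval of the difference ran from -0.46 to 0.47 with the empty vector and from -0.29 to 0.64 with TEL-AML1. Gbp3 was lower at day 7 in both vectors (-0.65 ± 0.23 and -0.42), as were Cxcl10 (-0.39 and -0.32) and Tor3a (-0.38 and -0.26), none past the test. Summed stroma intensity was also lower at day 7 than at day 5 in both vectors, by the means of 2 arrays, and its part in these values was not tested.

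**Figure D3:**
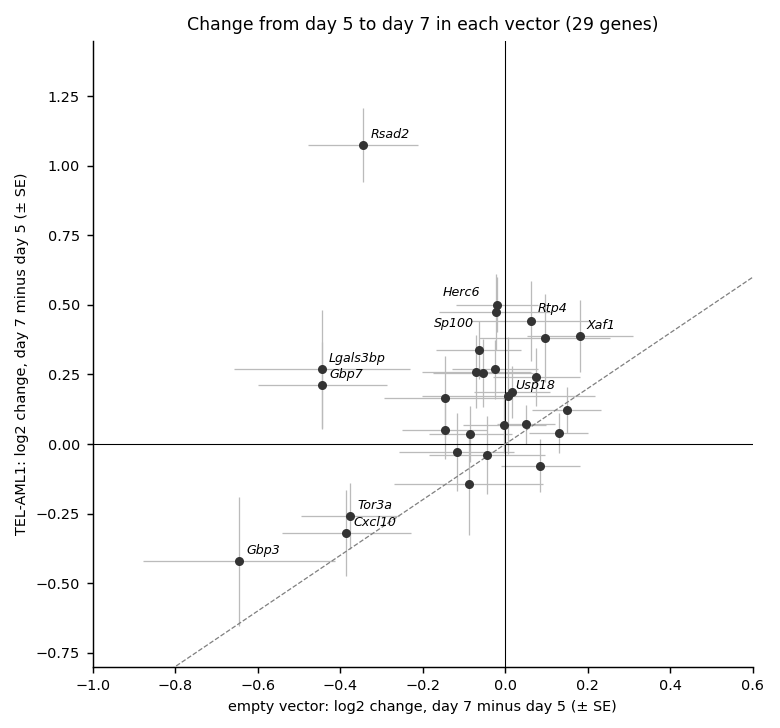
Log2 change from day 5 to day 7 (± SE) of 29 genes with the empty vector (x axis) and TEL-AML1 (y axis), with the dashed line of equal change. Most points lie above the line and Rsad2 stands alone at -0.35 and 1.07, though no gene passed the test on either axis.

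In untreated cells the difference between the vectors passed the test for 2 of the 29 genes. Sp100 was lower with TEL-AML1 (-1.02 ± 0.14, adjusted p = 0.00104) and Pml higher (0.36 ± 0.093, 0.0388), where 6.16% of all genes were lower and 2.74% higher. The Sp100 call was kept without each single array, and that of Pml was lost without any of 8 single arrays (up to 0.279). With the same-numbered arrays of a condition as a block, Irgm1 (-0.24, adjusted p = 0.0459) passed too, where 8.02% of all genes were lower and 4.06% higher. The arrays of TEL-AML1 lay wholly below those of the empty vector for 17 of the 29 (34% of all genes) and wholly above for 4 (23.9%), with a median difference of -0.11. Lgals3bp had the next largest difference (-0.52 ± 0.21, adjusted p = 0.205).

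At day 5, Cxcl10 (-0.59 ± 0.16, adjusted p = 0.046) and Tor3a (-0.56 ± 0.12, 0.0183) were lower with TEL-AML1 and none higher, where 4.28% of all genes were lower and 3.04% higher. Tor3a read 333 and 300 with the empty vector, against 210 and 210 with TEL-AML1, with no overlap. Cxcl10 lost its call without any of 9 single arrays (up to 0.251), and Tor3a without any of the 4 day 5 arrays (up to 0.0876). Cxcl10 and Gbp3 entered the test through their treated levels, which were highest at day 5 of the empty vector. Group means of Cxcl10 were 51.8 untreated and 114 at day 5 there, against 46.9 and 70.8 with TEL-AML1. Under the block of same-numbered arrays both were called (0.0154 and 0.0044), as was Gbp3 (-0.47, adjusted p = 0.00979), where 8.72% of all genes were lower and 6.18% higher. Stroma sums at day 5 were 9973 and 7979 with the empty vector, against 8297 and 3816 with TEL-AML1, and their part in these differences was not tested.

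At day 7 Rsad2 and Herc6 were higher with TEL-AML1 and Tor3a lower, where 5.28% of all genes were higher and 6% lower. Rsad2 differed by 1.56 ± 0.13 (adjusted p = 9.67e-05), a call kept without each single array. Herc6 read 210 and 179 with the empty vector, against 290 and 304 with TEL-AML1, with no overlap (0.58 ± 0.099, adjusted p = 0.00417, kept without each single array). Tor3a differed by -0.44 ± 0.12 (0.0396), lost without any of 9 single arrays (up to 0.206). With the same-numbered arrays of a condition as a block, 12 of the 29 passed at day 7 in place of 3, while the share of all genes grew to 8.53% higher and 9.43% lower. Then Rsad2, Herc6, Gbp7 (0.50), Irgm1 (0.41), Mx2 (0.40), Ifi35 (0.35), Usp18 (0.33), Epsti1 (0.31) and Uba7 (0.26) were higher, and Ifi27 (-0.55), Cxcl10 (-0.53) and Tor3a lower. Of these, Gbp7, Mx2, Epsti1 and Cxcl10 entered the test through their treated levels. The arrays of TEL-AML1 lay wholly above those of the empty vector for 13 of the 29 (21.6% of all genes) and wholly below for 4 (28.4%).

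**Figure D4:**
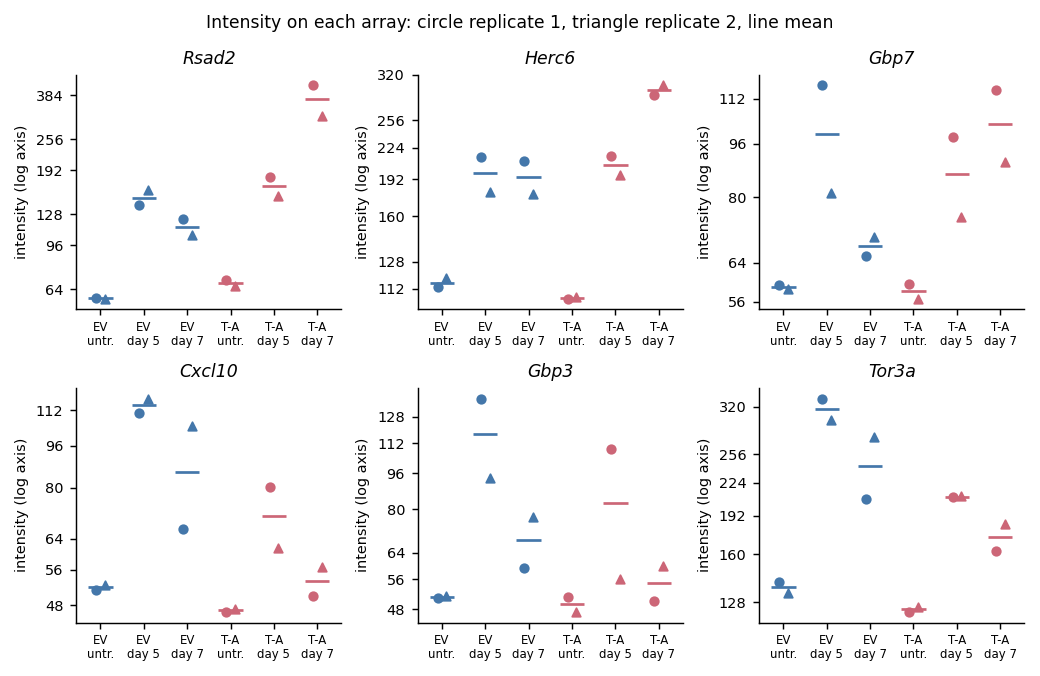
Intensity on each array (log axis) for Rsad2, Herc6, Gbp7, Cxcl10, Gbp3 and Tor3a in empty vector (EV, blue) and TEL-AML1 (T-A, red) cells, with a line at the mean of 2 arrays. Rsad2 and Herc6 are highest on the day 7 arrays of TEL-AML1 (421 and 318, 290 and 304), while Cxcl10, Gbp3 and Tor3a have their highest value (118, 141 and 333) on a day 5 array of the empty vector.

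The size of the response itself was compared between the vectors. Across the 29 genes the responses of the vectors, which share no arrays, correlated at r = 0.96 (rho = 0.912) at day 5 and r = 0.926 (rho = 0.878) at day 7. These describe genes, which are not independent replicates. At day 5 no gene's difference in response passed the test (0.0162% of all genes in each direction, smallest adjusted p of the genes 0.565), and unadjusted p fell under 0.05 for 2 higher and 1 lower with TEL-AML1 (4.88% and 2.8% of all genes). At day 7 Rsad2 responded more with TEL-AML1, by 1.39 ± 0.19 (adjusted p = 0.0318), where 0.0567% of all genes did and 0.0243% responded less. That call was lost without any of the 4 untreated arrays, without either day 5 array of the empty vector, and without TEL-AML1 day 7 replicate 1 (up to 0.213), with a difference of 1.20 to 1.59.

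Sp100 had the next largest difference in response at day 7 (1.25 ± 0.19, adjusted p = 0.066), starting from its lower untreated level with TEL-AML1. Lgals3bp (1.01), Herc6 (0.68) and Irgm1 (0.64) followed and did not pass. By unadjusted p under 0.05, 13 of the 29 responded more with TEL-AML1 at day 7 and 0 less, against 6.19% and 2.85% of all genes. With the same-numbered arrays as a block, Rsad2, Sp100 (adjusted p = 0.0158) and Irgm1 (0.0441) passed with a larger response, as 0.203% of all genes did, and 0.073% passed with a smaller one. The difference between the vectors in the change from day 5 to day 7 passed for no gene (0% of all genes), with Rsad2 at 1.42 ± 0.19 (adjusted p = 0.221) and 6 higher and 0 lower by unadjusted p (1.75% and 1.69% of all genes). Of the 29, 25 had a more positive change with TEL-AML1, where 47.2% of all genes did.

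In all 4 treated groups Bst2, Irgm1, Gbp3 and Trim21 were higher on the array with more stroma transcript, or 13.8% of the 29 genes, a share near the 11.8% of all tested genes. The highest of the 12 values stood on empty vector day 5 replicate 1 for Gbp3 (141) and Tor3a (333) and on replicate 2 for Cxcl10 (118), and Gbp3 was also higher on TEL-AML1 day 5 replicate 1 (109) than on the other empty vector array of that time (93.6). The lowest stroma sums of the treated arrays were on replicate 1 of day 7, at 2548 with the empty vector and 2283 with TEL-AML1. Some stroma genes were above their untreated levels there in both vectors. Fn1 read 276 and Bgn 216 with the empty vector, against 131 and 88.3 with TEL-AML1 (at most 61.2 and 64.3 untreated). On those arrays Gbp3 read 59.3 and 50.2, where untreated arrays of the same vector read 50.8 and 51.3, and 51.1 and 47.4. Cxcl10 read 66.7 and 49.9, where untreated arrays read 51.3 and 52.4, and 46.6 and 47.2. Usp18 read 1658 and 2014, Rtp4 882 and 934 and Sp100 915 and 943 on the same arrays. The part of stromal RNA in the level of any of these genes was not tested. In each condition the stroma-rich array bears the same replicate number in both vectors.

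With only the treated array of lower stroma signal in each group, an alternative chosen after the data were seen, 28 and 26 genes rose with the empty vector at day 5 and day 7 and 22 and 25 with TEL-AML1. Of all genes 15.9%, 17.3%, 3.9% and 10.1% rose in that fit, more than with all arrays. The spread in that fit comes from the untreated arrays alone, and the lone treated arrays are assumed to vary like them.

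**Figure D5:**
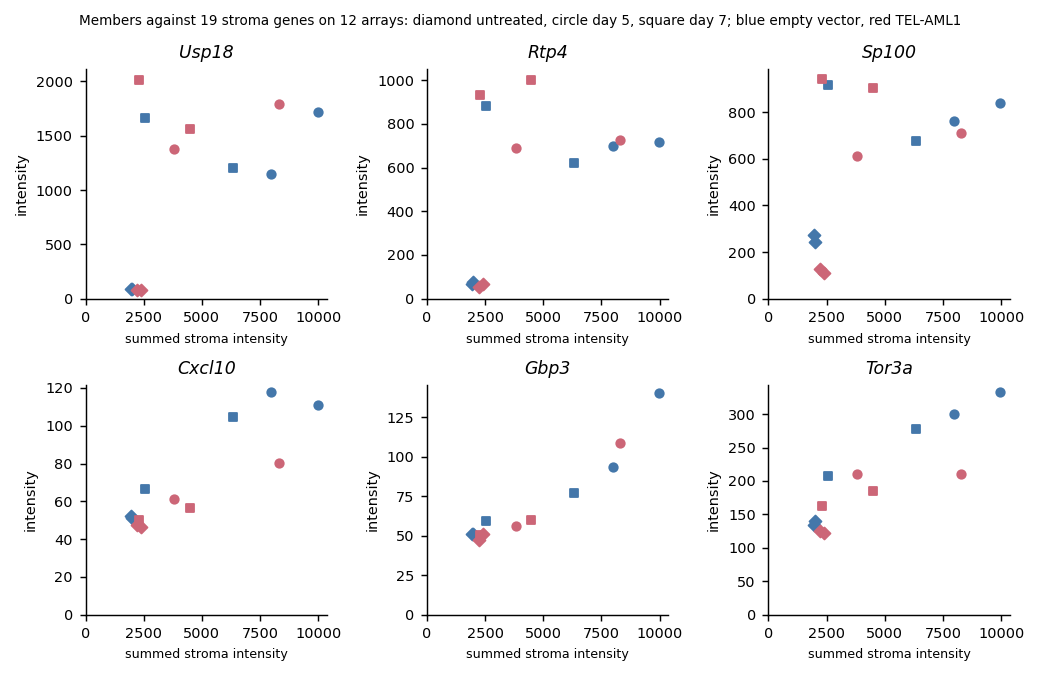
Intensity of Usp18, Rtp4, Sp100, Cxcl10, Gbp3 and Tor3a against the summed intensity of 19 stroma genes on 12 arrays (diamonds untreated, circles day 5, squares day 7, blue empty vector, red TEL-AML1). The sums run from 1942 to 9973, and the 2 treated arrays with the lowest sums are squares at 2283 (TEL-AML1) and 2548 (empty vector).

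Of 23 tested genes of the interferon pathway outside the effector list, 3 rose at day 5 and 3 at day 7 in empty vector cells, against 2 and 5 in TEL-AML1 cells, where 8.45%, 6.28%, 1.17% and 4.77% of all genes rose, and none fell. Of 14 listed ligands, 10 had a probe set, only 2 were bright enough to test and neither passed in any comparison. Ifnb1, the interferon beta gene, read 41.2 to 60.3 on the 12 arrays. Of 5 tested receptors none rose or fell at day 5 against untreated cells in either vector. Ifnar1 read 407 to 493 and Ifnar2 1074 to 1246 on all arrays, with log2 changes of -0.05 to 0.10 after treatment. Ifngr1, a chain of the interferon gamma receptor, rose at day 7 of TEL-AML1 (0.84 ± 0.12, adjusted p = 0.00333). It was higher with TEL-AML1 in all 3 conditions (0.50, 0.76 and 1.15), as was Ifngr2 (0.98, 1.00 and 1.14). The untreated Ifngr1 difference was lost without either untreated empty vector array or TEL-AML1 untreated replicate 2 (adjusted p up to 0.277).

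Irf7, the transcription factor that amplifies type I interferon production, rose in all 4 comparisons. It read 114 and 113 untreated, 904 and 872 at day 5 and 850 and 768 at day 7 with the empty vector, and 94.3 and 82.4, then 895 and 770, then 914 and 996 with TEL-AML1. No treated array came near an untreated one (2.80 ± 0.097, 2.67, 3.02 and 3.22, adjusted p = 4.66e-07, 5.96e-07, 1.09e-07 and 5.76e-08). Irf9 rose by 1.03, 1.10, 1.05 and 1.24. Stat2 passed at day 5 of the empty vector (0.80 ± 0.16, adjusted p = 0.0112) and at day 7 of TEL-AML1 (0.70, 0.025), and not in the other comparisons (0.46 and 0.72, adjusted p = 0.0741 and 0.0535). Both Stat2 calls were lost without either untreated array of the vector, and the second also without either day 7 array (up to 0.102 and 0.159). Of 5 tested inhibitors, Socs1 rose at day 7 of the empty vector (0.31 ± 0.081, adjusted p = 0.0287).

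Irf1, which interferon gamma induces, passed in no comparison of treated with untreated cells (0.25, 0.18, 0.40 and 0.47). It was higher with TEL-AML1 at day 7 (0.47 ± 0.13, adjusted p = 0.0445), a call lost without any of 7 single arrays (up to 0.219). Irf5 rose at day 7 of TEL-AML1 (0.38 ± 0.080, adjusted p = 0.0182), lost without any TEL-AML1 untreated or day 7 array (up to 0.161). Plasmacytoid dendritic, macrophage, B lineage and T and NK marker lists gave sums of 496 to 834, 633 to 885, 423 to 637 and 2353 to 2975 on the 12 arrays. With the empty vector, plasmacytoid dendritic sums were 608 to 631 untreated, 810 to 827 at day 5 and 754 to 834 at day 7. With TEL-AML1 they were 496 to 532, 579 to 612 and 614 to 626. Macrophage sums in that order were 785 to 882, 633 to 690 and 741 to 758 with the empty vector. For TEL-AML1 they were 866 to 885, 731 to 880 and 750 to 815. B lineage sums were 423 to 436, 567 to 637 and 462 to 520, against 424 to 436, 475 to 569 and 439 to 546. Only 1 tested plasmacytoid dendritic gene and 1 tested B lineage gene rose at day 5 with the empty vector. These were Tcf4 (0.61, limma's adjusted p = 0.00651), beside Irf8 (0.06) and Pacsin1 (0.01), and Ebf1 (1.93, 0.0175). The other tested B lineage genes lay between -0.22 and 0.08. At day 5 of TEL-AML1 Tcf4 (0.42) and Ebf1 (1.14) did not pass. The sums therefore do not show a rise of either list as a whole.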

How the data were processed

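RNA of 12 samples was measured on Affymetrix arrays, 6 groups of 2, with groups and replicate numbers taken from the sample titles. Per the labels' protocols, RNA was extracted with TRIzol, cleaned on RNeasy columns and labelled with biotin. The deposited table holds 1 linear intensity per probe set and array, for 35556 probe sets. The authors' background correction, probe summary and normalization are not given in the sources used. The array medians lay within 0.0975 of each other on the log2 scale (limit 0.5), so the deposited intensity values were kept. An array has no read depth, and the number of arrays limits the precision.

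The platform annotation named 1 gene for 21218 probe sets, several for 1881 and none for 12457. A gene took its probe set with the highest mean log2 intensity. Genes with a mean intensity above the 40th percentile of all probe sets (60.1) were tested, 12337 in all. limma 3.58.1 (R 4.3.3) was fitted to log2(intensity + 16) with 6 group means and 12 contrasts, 6 residual and 4.22 prior degrees of freedom, and Benjamini-Hochberg adjustment within each contrast at 0.05. The fit was tested on simulated data.

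Members, pathway and marker lists were chosen with earlier results of these data known. Every member could be named. Values on each array went to called members with the largest changes (8 for treated against untreated, 5 otherwise) and to the least changed. Pathway genes were named by a list, or where called.

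Replicate numbers were checked for pairing. Deviations of same-numbered arrays from their group means correlated between the vectors within a condition at 0.433 (untreated), 0.543 (day 5) and 0.377 (day 7), while across conditions they ran from -0.241 to 0.156. The main fit has group means only and does not use this pairing, and the main calls of the vector comparisons come from it. Same-numbered arrays of a condition were taken as pairs only in an alternative fit, as a replicate block within each condition.

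Alternatives were quantile normalization, median centring, other filters and pseudocounts, other uses of a gene's probe sets, array weights, a trended and robust variance, replicate blocks, a fit of only the groups compared and leaving out each array. Promoter windows are those of RefSeq, GRCm38.p6.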

Additional observations from a re-analysis of the deposited data

Results flagged for a closer look

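The response of Rsad2 at day 7 differed between the vectors, by 1.39 on the log2(intensity + 16) scale (adjusted p = 0.0318 by limma's test of the difference of responses). The day 7 minus untreated change was 2.19 with TEL-AML1 and 0.79 with the empty vector. Rsad2 read 421 and 318 on the day 7 arrays of TEL-AML1 and 123 and 105 on those of the empty vector. Stroma transcripts summed to 2283 and 4487 on the first pair and to 2548 and 6331 on the second. The higher Rsad2 value of each of these pairs stood on the array with less stroma transcript. At day 5 of TEL-AML1 it stood on the array with more (Rsad2 181 against 151, stroma 8297 against 3816). The part of stroma in these values was not tested.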

How the results depend on the processing

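Each count of called genes was recomputed under other normalizations, filters, pseudocounts, probe set rules, variance models and replicate blocks, with each array left out in turn, and with the alternative added after the data were seen (only the treated array of lower stroma signal). No call changed direction. With single arrays left out, the counts ran from 19 to 26 (day 5) and 18 to 25 (day 7) with the empty vector and from 18 to 21 and 18 to 24 with TEL-AML1. The calls kept in every setting were 19 of 25, 18 of 25, 18 of 21 and 18 of 23. For TEL-AML1 against empty vector the counts without single arrays were 1 to 2 untreated, 0 to 2 at day 5 and 2 to 9 at day 7, where 9 came without empty vector day 7 replicate 1 and 5 without either day 5 array of the empty vector. Day 7 against day 5 gave 0 to 1 in either vector, and the difference in the day 7 response 0 to 2. Untreated, the vectors differed in 1 gene after median centring, 4 with array weights and 5 with only the compared groups. At day 5 the count was 1 under quantile normalization, median centring, no filter, the 60th percentile filter, only the compared groups and the replicate block over all arrays or within each vector. At day 7 it was 1 with only the compared groups. The Rsad2 response call at day 7 was lost, leaving 0, under quantile normalization (adjusted p = 0.0506), no filter (0.06) and only the compared groups (0.0617), and there were 2 calls with a trended and robust variance or array weights. The causes of these changes were not tested.

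With the replicate block within each condition, 3 genes differed between the vectors untreated, 3 at day 5, 12 at day 7 and 3 in the day 7 response, and 1 gene passed between day 5 and day 7 in each vector (Gbp3 with the empty vector, Rsad2 with TEL-AML1). Comparisons of times run across such pairs, so the block leaves the gap between pairs out of their error. It lost no call of the vector comparisons. With only the treated array of lower stroma signal, day 7 against day 5 gave 7 (empty vector) and 10 genes (TEL-AML1), TEL-AML1 against empty vector 5 untreated, 6 at day 5 and 8 at day 7, and the differences in response 5 at day 5, 7 at day 7 and 3 between the times. In that fit each treated group is 1 array and the error comes from the untreated arrays alone. Counts that involve treated arrays therefore cannot decide whether a gene changed. Against untreated cells that fit also called more of all genes higher than the fit of all arrays did. The share of all genes is not given for that fit's times, vectors or responses. It is also not given for the block's counts between the times or for counts with single arrays left out. Whether these counts are particular to the interferon effector genes was not tested. The deposited intensities near background bound what can be said of Isg15, Gbp2, Nmi, Gbp3, Mx1 and Epsti1, and of the untreated levels of Cxcl10, Gbp7 and Mx2.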
